A study of Mus musculus with 8 samples.

Results

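The Kcn genes encode potassium channels and their accessory subunits. The members described here are the accessible regions that the deposited table assigns to a protein-coding gene whose symbol starts with Kcn. They number 1809 of the 489637 regions in the table and fall in 82 of its 17095 protein-coding genes. Potassium channels let potassium leave the cell, hold the resting membrane potential near the potassium equilibrium and end action potentials. In skeletal muscle the inward rectifiers and the ATP-sensitive channel stabilise the resting potential of the fibre and its transverse tubules, and voltage-gated channels repolarise it. Many other Kcn genes are known mainly from neurons, where they set firing rate and spike shape. Kcnma1, Kcnh2 and Kcnip2 are also known from clock-controlled excitability in the suprachiasmatic nucleus or the heart.

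ATAC-seq, which uses a transposase to cut and tag open chromatin, was run on 50000 nuclei per library from whole mouse gastrocnemius, a fast limb muscle. Every mouse had the genotype Cre+:iMSBmal1 fl/fl, that is a Cre recombinase and floxed copies of the clock gene Bmal1, and was 6 months old. The 4 vehicle libraries came from vehicle-treated mice, and the 4 iMSBmal1KO libraries from mice given tamoxifen. Each library pooled 2 gastrocnemius muscles. The labels do not name the promoter that drives Cre, and tamoxifen and the loss of Bmal1 cannot be told apart in this design. The labels do not say that libraries came from separate animals, so the p-values measure only the spread between these libraries.

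The depth was 4.31 M to 29.5 M read equivalents per library, where a read equivalent is the signal that 1 read is worth in that library. Vehicle 4 was the shallowest, with 16.5% of its signal in mitochondrial regions and 24.9% of all regions at 0. The table lists Bmal1 as Arntl, and its summed signal was 1942 to 2688 in the vehicle libraries and 3023 to 3421 in the iMSBmal1KO libraries. Of its 37 tested regions 1 was called higher and 0 lower, so accessibility gave no check on the deletion. Nuclei of whole muscle hold several cell types, and a smaller share of a cell type and less open chromatin per nucleus cannot be told apart. All 6 fast-fibre marker genes (Acta1, Ckm, Mylpf, Tnnt3, Myh4 and Ttn) had promoter regions, with a median of 1386 signal units per kb. The medians were 59.4 for 3 neuron markers, 105 for smooth muscle, 38.8 for endothelium, 169 for fibro-adipogenic cells, 58.5 for satellite cells and 9.29 for macrophages. Schwann cell markers had a median of 86.2 over 3 of 4 genes. Their summed promoter signal ran from 266 to 418 in the vehicle libraries and from 402 to 523 in the iMSBmal1KO libraries, and its part in the results below was not tested.

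Promoter sequences are shown for 3 genes because they differ in what the data show at the start, which is an accessible region with an E-box, an accessible region without one, and no region. Each is the run of 250 bases before an annotated start, from RefSeq on GRCm38.p6, written 5′ to 3′ along the gene. Capitals mark the E-box CACGTG, the core sequence that BMAL1 with CLOCK is known to bind.

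Kcnj2, chr11:111065914-111066163, strand +: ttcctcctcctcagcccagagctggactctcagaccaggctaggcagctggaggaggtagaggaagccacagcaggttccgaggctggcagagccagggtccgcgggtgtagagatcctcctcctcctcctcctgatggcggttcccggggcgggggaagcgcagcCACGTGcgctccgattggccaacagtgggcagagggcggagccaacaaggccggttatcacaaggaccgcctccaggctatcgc

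Kcnc1, chr7:46396218-46396467, strand +: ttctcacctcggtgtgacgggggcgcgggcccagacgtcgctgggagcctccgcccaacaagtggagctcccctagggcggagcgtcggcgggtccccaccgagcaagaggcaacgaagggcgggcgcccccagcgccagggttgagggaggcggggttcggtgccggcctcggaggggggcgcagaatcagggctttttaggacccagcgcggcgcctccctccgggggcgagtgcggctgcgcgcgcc

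Kcnd2, chr6:21215096-21215345, strand +: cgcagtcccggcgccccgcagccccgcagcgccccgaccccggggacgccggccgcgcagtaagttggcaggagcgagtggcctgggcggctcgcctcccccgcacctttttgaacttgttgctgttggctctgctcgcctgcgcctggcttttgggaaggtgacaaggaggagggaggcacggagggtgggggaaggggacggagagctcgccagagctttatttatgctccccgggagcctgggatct

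Kcnj2, the main strong inward rectifier of muscle, has an E-box 84 bases before its start, inside the accessible region chr11:111065760-111066573. Kcnc1, a fast voltage-gated channel, has a GC content of 74.4% and 30 CpG dinucleotides in its 250 bases. Its observed CpG count is 0.879 of that expected from its C and G content, against 0.521 for Kcnj2. Kcnd2, a channel of neuronal dendrites, has 22 CpG dinucleotides and a ratio of 0.750, and no accessible region of the table overlaps its window.

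In vehicle muscle, accessibility of the Kcn genes lay mostly away from their starts. A promoter region is here a region within 1000 bp of an annotated start, and signal is the deposited value per region. Promoter regions held 22.7% ± 1.19 (SD, n = 4) of the Kcn signal, against 62.9% ± 1.77 of the signal of all protein-coding genes. Regions annotated to introns held 41.3% ± 1.49 of the Kcn signal against 21.7% ± 0.917. Those annotated to UTR exons held 27.6% ± 0.549 against 9.62% ± 0.519. The Kcn and all-gene shares did not overlap in any of these sections over the 4 libraries. The section labels came with the deposited regions and were not checked against exon bounds. For example, 6 strong Kcnma1 regions labelled 5′ UTR exon lay 70311 to 174481 bases after a start. A promoter region was present for 59 of the 82 Kcn genes (72.0%), compared with 84.3% of all protein-coding genes. For the median Kcn gene 15.4% of its signal was in the promoter, and for the median protein-coding gene 72.3%. In 61 of the 74 Kcn genes with a region outside the promoter, the strongest such region exceeded the promoter in signal per kb.

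The signal was also concentrated in a few genes. Regions per gene ran from 1 to 383 with a median of 11. Kcnma1, the pore of the large-conductance calcium-activated channel, held 21.2% of the Kcn regions and 22.3% of the Kcn signal. Together with Kcnc1, Kcnj12, Kcnj11 and Kcnq5 it made up 48.6% of the Kcn signal. Summed over all regions, the Kcn signal was 30029 to 38532 in the vehicle libraries and 31027 to 37420 in the iMSBmal1KO group, and these ranges overlap.

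The muscle list holds 13 Kcn genes known from skeletal, smooth or cardiac muscle, and the neuronal list 20 genes known mainly from neurons, of which 18 are in the table. All 13 muscle genes had a promoter region, with a median of 197 per kb and a range of 62.6 to 1124. Of the 18 neuronal genes 9 had one, and with the others counted as 0 the median was 12.6 per kb. The median over all 82 Kcn genes was 55.3 per kb and over all protein-coding genes 151.7, counted the same way. Above that last level lay 9 muscle genes, 3 neuronal genes and 6 of the 51 genes in neither list. The muscle list is not complete. Kcnd3, Kcnh2 and Kcnip2, described below with heart or muscle, are in neither list. Their promoters had 70.5, 112 and 45.9 per kb, all below that level. The difference of the list medians in the vehicle libraries was 5.27 on the log2(promoter signal per kb + 1) scale. It was 1.74 with a window of 2000 bp and 7.93 with a window of 500 bp. It carries no test because the lists were chosen with earlier results of these data known.

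**Figure D1:**
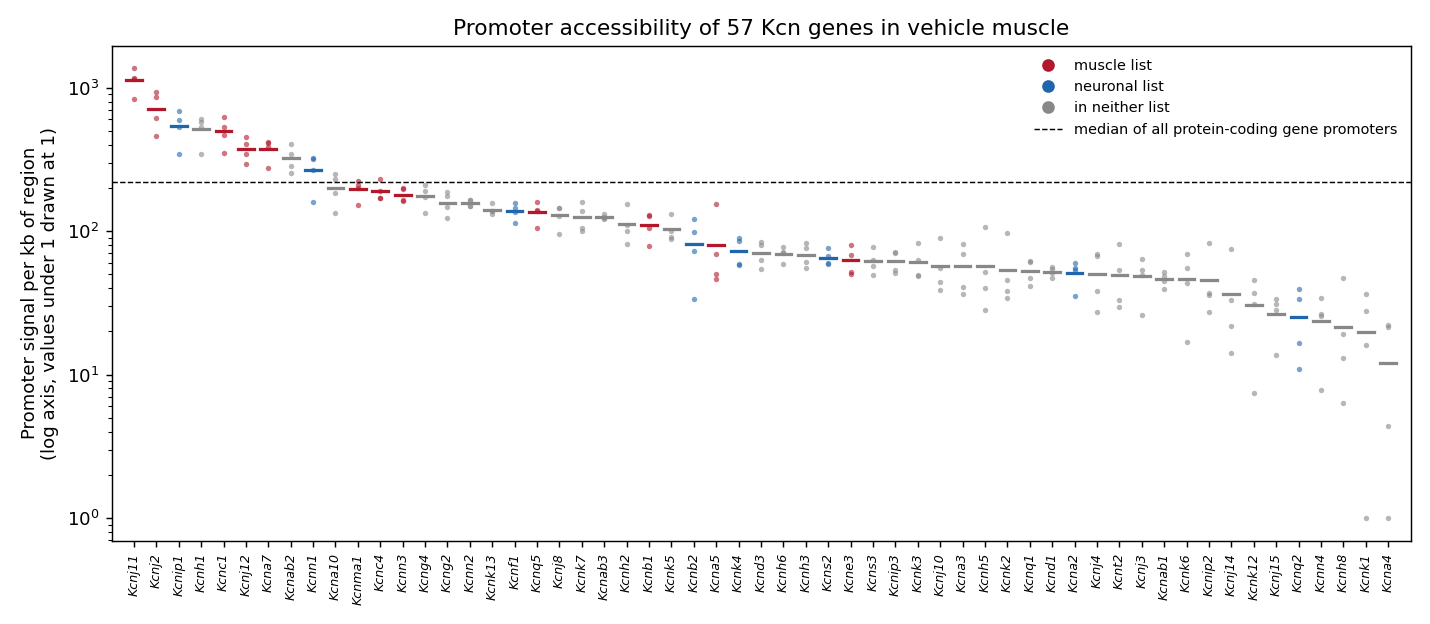
Promoter signal per kb of region (log axis) for 57 Kcn genes with a promoter region, 4 points for the vehicle libraries and a bar for their mean. Of these 57 genes 9 lie above the dashed median of all protein-coding gene promoters with a region (219.5 per kb), Kcnj11 is highest, and 2 of the 9 are on the neuronal list.

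Kcnj11 encodes the pore of the ATP-sensitive potassium channel, which couples fibre excitability to energy state. Its promoter signal per kb was 1362, 1164, 1142 and 829 in vehicle libraries 1 to 4 and 943, 1222, 1214 and 1381 in iMSBmal1KO libraries 1 to 4. The groups overlapped, and vehicle 4 was the lowest of all 8 libraries. It ranked first among the Kcn promoters in all 4 vehicle libraries and stood at the 95.8th percentile of the 14417 gene promoters. Kcnj2 had 859, 926, 616 and 461 in vehicle and 783, 853, 855 and 887 in iMSBmal1KO libraries. Its mean was 715 ± 216 in vehicle libraries (SD, n = 4), with vehicle 4 the lowest and the groups overlapping.

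Kcnip1, a calcium-binding partner of the Kcnd channels known from neurons, had 691, 528, 594 and 345 in vehicle and 425, 513, 469 and 519 in iMSBmal1KO libraries. Its 1 region at the start gave that value, chr11:33993030-33993320. Kcnh1, a slow voltage-gated channel, had a mean of 515 ± 117 and Kcnc1 one of 495 ± 114, and these neighbours overlap. Kcnh1 had 580, 604, 530 and 345 in vehicle and 658, 747, 544 and 664 in iMSBmal1KO libraries. Kcnc1 had 623, 469, 536 and 352 in vehicle and 454, 603, 472 and 652 in iMSBmal1KO libraries. Kcnj12, the inward rectifier that shares the muscle current with Kcnj2, and Kcna7, a voltage-gated channel of muscle and heart, had equal means within their spread, 374 ± 68.6 and 373 ± 66.2. Kcnab2, an oxidoreductase-like subunit of voltage-gated channels, had 323 ± 66.0, and Kcnn1, a small-conductance calcium-activated channel of neurons, 267 ± 75.5. Of these 9 genes Kcnab2 was the exception in vehicle 4, where it had its highest vehicle value (404), while the other 8 had their lowest. Kcnab2 shares its promoter with the neighbouring gene Nphp4, so this signal cannot be given to Kcnab2 alone. Kcnd3, Kcne3, Kcnk3 and Kcnma1 likewise share a promoter with a neighbouring gene.

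Kcnj11, Kcnc1 and Kcna7 lie on chromosome 7 with first promoter regions between positions 45404920 and 46396137. By summed rather than per-kb promoter signal they take ranks 1, 3 and 5 of the Kcn genes. The same stretch holds Kcnj14, an inward rectifier of neurons, at 36.2 per kb and rank 52.

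The lower end of the muscle list was Kcne3, a small accessory subunit, at 62.6 ± 14.1 per kb, below Kcna5, a voltage-gated channel of smooth and cardiac muscle, at 80.1 ± 50.5. Kcnma1 had 197 ± 31.4, Kcnc4 190 ± 28.7 and Kcnn3, a small-conductance calcium-activated channel, 180 ± 20.1, and these neighbours do not differ beyond their spread. On the neuronal list 9 genes had no promoter region in the table. They are Kcnc2, Kcnd2, Kcnh7, Kcnip4, Kcnj6, Kcnj9, Kcnk9, Kcnq3 and Kcnt1. Kcnj6, a G-protein-gated inward rectifier, still had 71 regions with a summed signal of 925, among them an intron 2 region at 749 per kb, chr16:94827095-94827786. By class, no promoter region was found for 9 of 37 voltage-gated genes, 3 of 12 inward rectifiers, 3 of 12 2-pore-domain genes, 2 of 8 calcium- or sodium-activated genes and 6 of 13 auxiliary genes. The 2-pore-domain genes, which carry background leak current, reached a promoter signal of no more than 141 per kb, at Kcnk13, while an intron 1 region of Kcnk3 had 537 per kb.

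Promoter regions were 279 of all 1809 Kcn regions (15.4%), so most Kcn regions lay outside promoters whatever their strength. Of the 30 Kcn regions with the highest vehicle signal per kb, 22 lay outside promoters, which is no excess. The 30 fell in 14 genes. The first was in intron 10 of Kcnh1, chr1:192454041-192454316, 263267 bases after the start. It had 360, 419, 968 and 297 in vehicle and 418, 430, 829 and 695 in iMSBmal1KO libraries, with vehicle 3 the highest and the groups overlapping. The second was in intron 1 of Kcnc1, chr7:46403598-46404168, with 1238, 830, 1034 and 804 in vehicle and 721, 990, 1007 and 1095 in iMSBmal1KO libraries. Kcnc1 held 4 such intron 1 regions among the 30, at 887 to 1713 per kb, and its start region had 1292. Kcnma1 held 6 regions annotated as 5′ UTR exon among the 30. The strongest, chr14:23882002-23882603, had 1011, 759, 786 and 572 in vehicle and 540, 855.5, 686 and 706 in iMSBmal1KO libraries. The groups overlapped at both of these Kcnc1 and Kcnma1 regions.

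**Figure D2:**
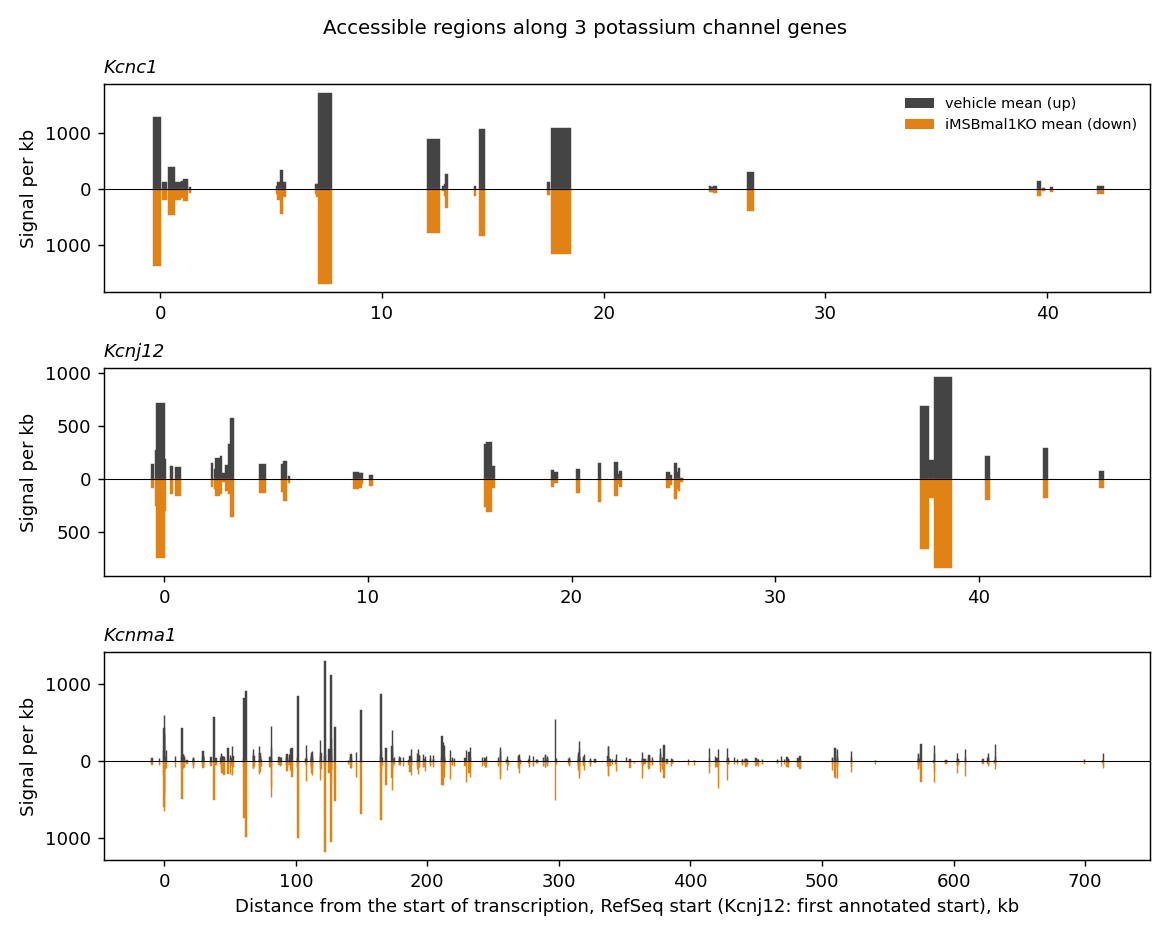
Mean signal per kb of every table region (height) along Kcnc1, Kcnj12 and Kcnma1 against distance from the start in kb, vehicle upward and iMSBmal1KO mirrored downward. In each gene the same regions are high in both groups, and the highest region lies inside the gene rather than at the start (1713 per kb in vehicle at Kcnc1 and 1301 at Kcnma1).

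The comparison of iMSBmal1KO with vehicle asks whether this chromatin differs between mice given tamoxifen and mice given vehicle. It cannot separate loss of Bmal1 from tamoxifen itself. Of the 468 Kcn regions that passed the signal filter, in 57 genes, 0 had an adjusted p under 0.05 (limma, Benjamini-Hochberg over all tested regions). Over all 124901 tested regions 110 were called (0.0881%), 39 higher (0.0312%) and 71 lower (0.0568%). At an unadjusted p under 0.05 there were 36 Kcn regions (7.69%) against 9.22% of all regions. Of these 22 were higher (4.7%, against 6.59%) and 14 lower (2.99%, against 2.63%). That split depends on the scaling, since trimmed-mean factors gave 13 higher and 26 lower and the autosomal total 10 higher and 26 lower. The groups did not overlap at 27 Kcn regions (5.77%) against 5.48% of all regions. They were 17 higher (3.63%, against 3.62%) and 10 lower (2.14%, against 1.87%). The log2 change was above 0 at 282 Kcn regions (60.3%, against 62%). The median log2 change of the Kcn regions was 0.09, and that of all tested regions 0.12. With trimmed-mean scaling these medians were -0.03 and 0.01, so the sign of the Kcn median depends on the scaling. Relative to all regions it stayed between -0.07 and -0.01 over the 18 settings. The Kcn shares lie close to the background.

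**Figure D3:**
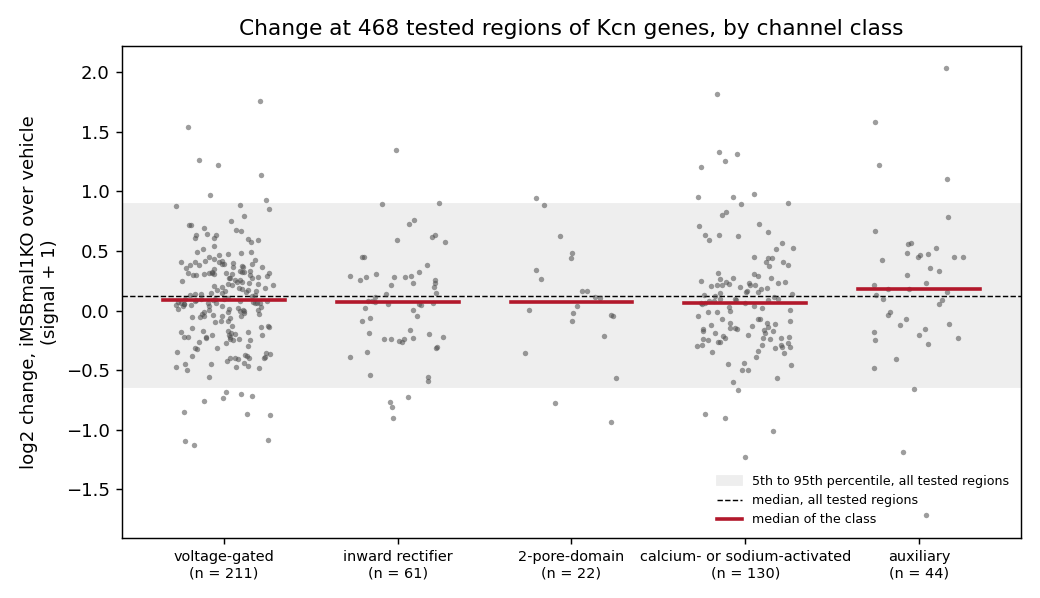
The log2 change (iMSBmal1KO over vehicle, signal + 1) of each tested Kcn region, by channel class, with the class median in red and the median and 5th to 95th percentile of all tested regions as a dashed line and a grey band. The 5 class medians lie between 0.06 and 0.18, next to the 0.12 of all regions.

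By class and with the deposited scaling, the counts at an unadjusted p under 0.05 are to be read against 9.22% of all tested regions, 6.59% higher and 2.63% lower. The voltage-gated genes had 211 tested regions, of which 8 were higher and 8 lower (7.58%). The inward rectifiers had 61, with 0 higher and 2 lower (3.28%), both in Kcnj12. The calcium- or sodium-activated genes had 130, with 8 higher and 2 lower (7.69%), and the 2-pore-domain genes 22, with 1 higher (4.55%). The auxiliary genes had 44, with 5 higher and 2 lower (15.9%). None of these regions passed after adjustment. Kcnma1 alone had 104 tested regions, of which 8 had an unadjusted p under 0.05 (7.69%, against 9.22%).

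Of the lower regions, the smallest p was in intron 5 of Kcnab1, which encodes a beta subunit that speeds inactivation of voltage-gated channels, chr3:65301616-65301896. Its signal was 54.4, 75, 45.8 and 31.3 in vehicle and 30.8, 17.6, 19.1 and 18.8 in iMSBmal1KO libraries. The groups did not overlap, although vehicle 4 and iMSBmal1KO 1 almost met. The log2 change was -1.19 ± 0.31 (SE, limma adjusted p = 0.227). Without vehicle 4 the adjusted p was 0.0308 and with cyclic loess scaling 0.0395, and it ranged from 0.0308 to 0.606 over 17 alternatives.

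A region annotated as 3′ UTR exon of Kcnma1, chr14:23372703-23372823, had 37.3, 23.6, 24.8 and 21.9 in vehicle and 8.13, 5.85, 13.1 and 20.1 in iMSBmal1KO libraries. The groups did not overlap, and the log2 change was -1.23 ± 0.37 (limma adjusted p = 0.352). At a start of Kcnc4, a fast voltage-gated channel of muscle, chr3:107459496-107459590, the signal was 17.1, 19.5, 16.5 and 31.3 in vehicle and 5.14, 8.36, 10.7 and 12.5 in iMSBmal1KO libraries. The groups did not overlap here either (log2 change -1.13, limma adjusted p = 0.411). Among the iMSBmal1KO libraries only iMSBmal1KO 4 reached the level of the signal filter. This Kcnc4 region was thus tested because of the vehicle libraries, where it is high. A region annotated as 5′ UTR exon of Kcnj12, chr11:61025792-61025932, had 92.7, 75, 76.3 and 81.3 in vehicle and 36.4, 57.7, 69.2 and 30.1 in iMSBmal1KO libraries. Again the groups did not overlap (log2 change -0.81, limma adjusted p = 0.432). A region near the end of Kcnh3, a voltage-gated channel of the forebrain, chr15:99242100-99242389, overlapped between groups, with 19.2, 25.7, 43.2 and 50 against 11.6, 6.69, 22.7 and 25.1 (limma adjusted p = 0.475).

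Of the higher regions, 1 lay in intron 3 of Kcnq5, which carries slowly activating subthreshold current. At this region, chr1:21714046-21714217, the signal was 55.4, 49.3, 28 and 21.9 in vehicle and 54.8, 85.3, 68.0 and 65.2 in iMSBmal1KO libraries. The groups touched at vehicle 1 and iMSBmal1KO 1 (log2 change 0.89 ± 0.30, limma adjusted p = 0.432). The gene's sum over all regions did not pass the limma test, with a log2 change of 0.21.

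An intron 1 region of Kcnip1, chr11:33917733-33917938, did not overlap between groups, with 11.7, 7.19, 8.90 and 3.13 in vehicle and 14.1, 15.9, 27.4 and 16.3 in iMSBmal1KO libraries (log2 change 1.22, limma adjusted p = 0.432). The 3.13 of vehicle 4 is 1 read. Among the vehicle libraries only vehicle 1 reached the level of the signal filter. This Kcnip1 region was thus tested because of the iMSBmal1KO libraries, where it is high, and its separation carries that limit. An intron 5 region of Kcnma1, chr14:23583375-23583509, overlapped, with 21.3, 47.3, 13.3 and 6.25 against 43.2, 58.5, 44.1 and 36.4 (limma adjusted p = 0.439). So did an intron 1 region of Kcnd3, a transient-current channel of heart and muscle, chr3:105521283-105521444, with 49.0, 57.5, 38.8 and 18.8 against 62.2, 84.5, 52.5 and 82.8 (limma adjusted p = 0.472). In these 4 higher regions vehicle 4 was the lowest of the 8 libraries.

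**Figure D4:**
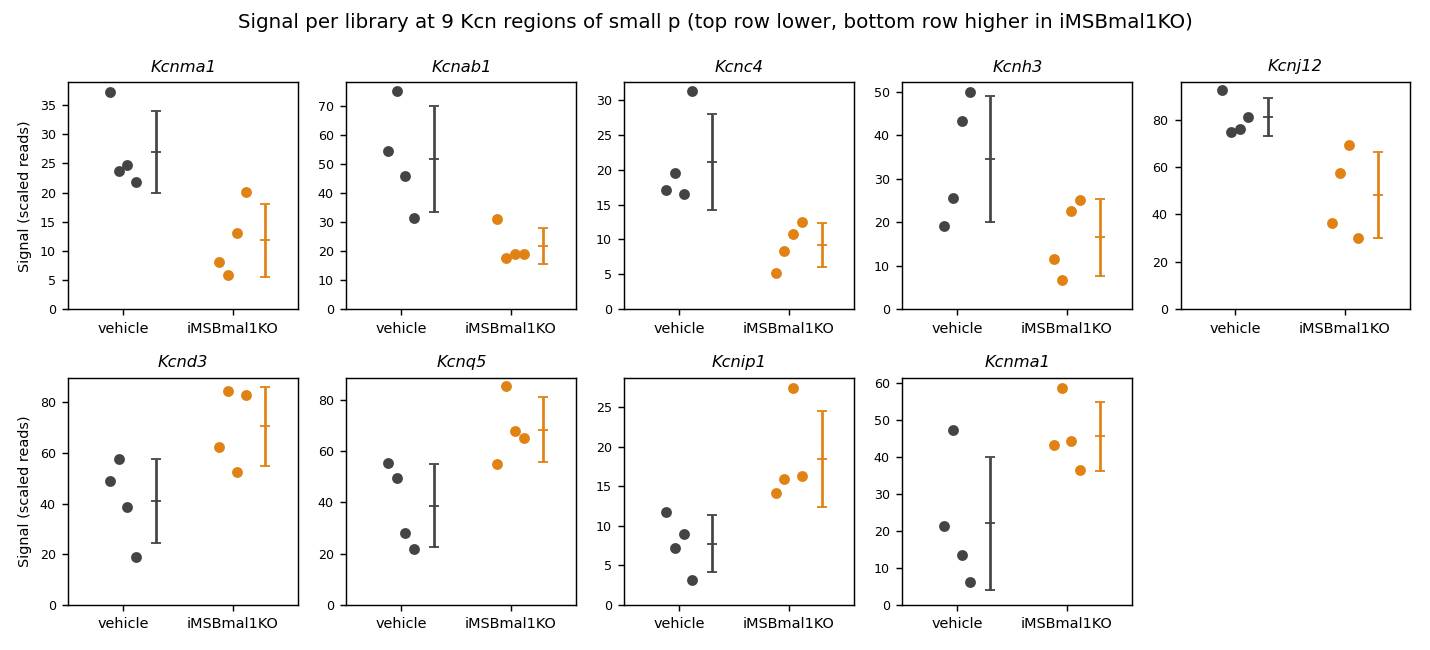
Signal in each library at 5 lower (top row) and 4 higher (bottom row) Kcn regions among those with the smallest p, vehicle in grey and iMSBmal1KO in orange, with the mean and SD (n = 4) beside the points. The groups do not overlap at Kcnab1, Kcnc4, Kcnj12, the lower Kcnma1 region and Kcnip1, and none of the 9 passed an adjusted p of 0.05. The Kcnc4 and Kcnip1 regions passed the signal filter mainly through the group where they are high.

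Promoter sums, 1 value per gene, gave the same count. Of 50 tested Kcn promoters 0 were called, against 16 of 12977 genes (0.123%). At an unadjusted p under 0.05 there were 3 (6%, against 11.2%), 2 higher (4%, against 10.1%) and 1 lower (2%, against 1.13%). The median log2 change was 0.06 against 0.16 for all gene promoters. At Kcna5 the promoter signal per kb was 50.2, 46.1, 69.8 and 154 in vehicle and 39.3, 43.1, 45.5 and 22.5 in iMSBmal1KO libraries. The groups barely separated, and the highest value came from the shallow vehicle 4. Its log2 change was -0.92 ± 0.34 (limma adjusted p = 0.399). Without vehicle 2 the adjusted p was 0.0316, without vehicle 4 the log2 change was -0.55 with an adjusted p of 0.841, and over 14 alternatives the adjusted p ranged from 0.0316 to 0.918. Kcnk3, an acid-sensitive leak channel, had 82.1, 63.0, 49.0 and 49.3 in vehicle and 99.7, 96.7, 75.2 and 85.7 in iMSBmal1KO libraries, which overlap (limma adjusted p = 0.424). Kcng2, a silent subunit that modifies Kcnb channels, had 175, 148, 187 and 123 against 164, 184, 237 and 324 (limma adjusted p = 0.426).

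**Figure D5:**
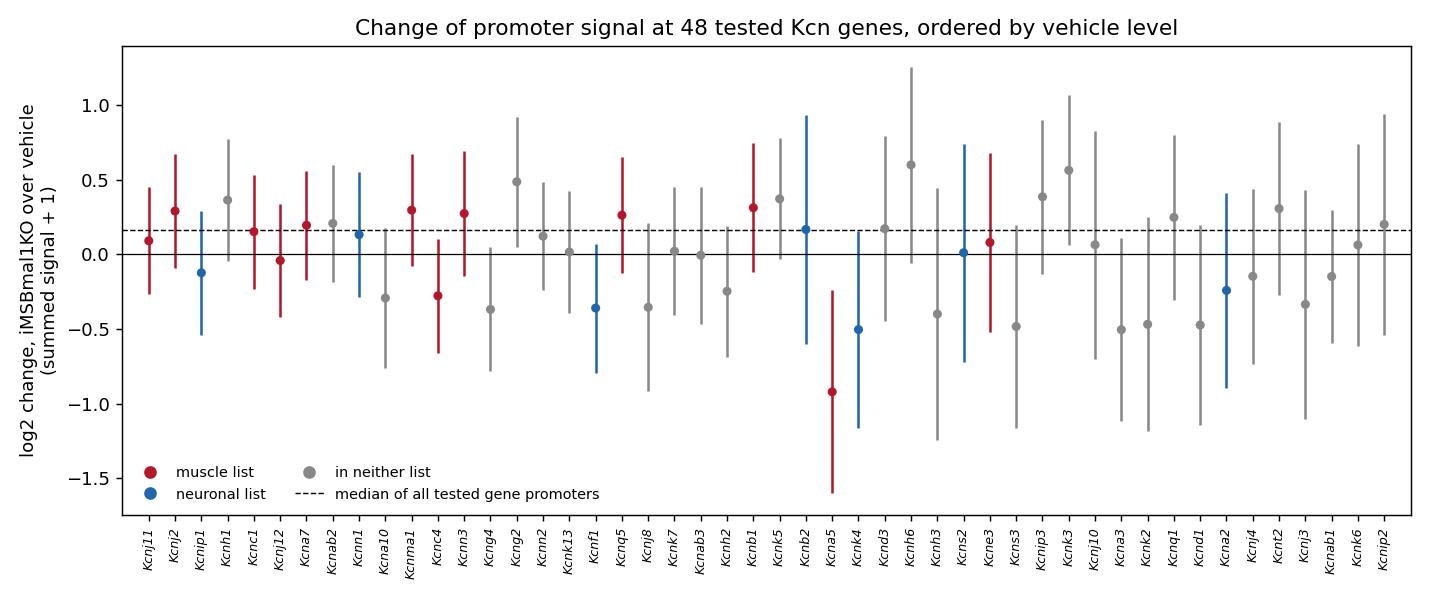
The log2 change of summed promoter signal (iMSBmal1KO over vehicle, signal + 1) with its 95% interval for 48 Kcn genes, ordered from the highest to the lowest vehicle level. Of the 48 intervals 42 include the dashed median of all gene promoters (0.16), and Kcna5 has the lowest estimate (-0.92).

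Summed over all regions of a gene, 0 of 78 Kcn genes were called (0.117% of all genes were), and 3 had an unadjusted p under 0.05 (3.85%, against 10.2%). Kcnd3 was the 1 higher gene (1.28%, against 8.57%) and Kcnh3 and Kcna5 the 2 lower ones (2.56%, against 1.58%), each with a limma adjusted p of 0.466. The Kcn gene sums lay above the median change of all genes in 19 of 78 cases (24.4%, against 50%), with a median log2 change of -0.04 against 0.12. Leaving out each library in turn gave counts of 12 (without vehicle 1) to 27 (without vehicle 4). The same share was 45.9% for the tested Kcn regions and 38% for the Kcn promoter sums, each also against 50%.

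Of the genes linked to clocks in other tissues, Kcnma1 had promoter signal per kb of 224, 201, 211 and 152 in vehicle and 192, 289, 238 and 251 in iMSBmal1KO libraries. Its sum over all 383 regions was 7766 ± 1080 in vehicle and 7745 ± 785 in iMSBmal1KO libraries (SD, n = 4). Kcnh2, a delayed-rectifier channel of the heart, had 99.5, 111, 155 and 81.3 in vehicle and 96.4, 63.6, 104 and 109 in iMSBmal1KO libraries. Kcnip2, the cardiac partner of the Kcnd channels, had 37.2, 35.8, 83.1 and 27.3 in vehicle and 44.8, 38.9, 41.6 and 76.6 in iMSBmal1KO libraries. The groups overlapped at all 3 promoters, and none passed the test.

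The E-box was searched on both strands from 250 bases before to 50 after annotated RefSeq starts. Of the 80 such windows of 59 Kcn genes 7 held CACGTG (8.75%), against 7.15% of all 32851 windows. They belong to Kcnj2, Kcnk5, Kcnab1 (2 alternative starts), Kcne4, Kcnh4 and Kcnn4. The 59 genes searched are not the same 59 that had a promoter region. Kcn genes with no such window, Kcnj11 among them, were not searched. The nuclear receptor half-site AGGTCA, or TGACCT on the other strand, was in 5 windows (6.25%, against 16.3%), and the MEF2-type sequence, an A/T-rich muscle motif, in 0 (0.164% of all windows). The accessible region around the Kcnj2 E-box printed above had a signal of 774 ± 227 in vehicle and 915 ± 46.7 in iMSBmal1KO libraries, a log2 change of 0.29 ± 0.20 (limma adjusted p = 0.639). At the Kcnk5 start, chr14:20181568-20181858, the signal was 68.6 ± 23.8 and 102 ± 16.8 (log2 change 0.62, limma adjusted p = 0.511). Neither passed the test.

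Among the genes that act beside these channels in the muscle membrane, all 11 on the list had a promoter region, with a median of 381 per kb. Abcc8 and Abcc9, the sulfonylurea receptors that assemble with Kcnj11, had 455 ± 99.3 and 420 ± 95.2, and Clcn1, the muscle chloride channel, 552 ± 145. Scn4a, the muscle sodium channel, had 203 ± 55.3. Of their 142 tested regions 0 were called and 3 had an unadjusted p under 0.05 (2.11%, against 9.22%).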

How the data were processed

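ATAC-seq signal was taken from the deposited table of 8 libraries, in which the authors give a scaled signal (coverage count per region times a library factor) rather than raw counts. In each library 98.3% to 99.8% of values were whole multiples of a smallest step (tolerance 0.02 reads), which set the depth. The submitters' processing notes name Partek, Bowtie2, MACS2 and DESeq2 and the builds mm10 and GRCm39, with no versions or order; region positions match GRCm38 gene bounds for the Kcn genes, and the table's end is 1 past the last base. Groups follow the treatment label, since the titles call both groups a control.

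Regions were kept with at least 10 reads at the median depth in 4 libraries and 15 reads in all. The 4 could all be of 1 group, so a region could pass through the group where it is high. The test was limma 3.58.1 (trend, robust) in R 4.3.3 on log2(signal + 1), two-sided, with Benjamini-Hochberg adjustment over all tested regions or genes and a threshold of 0.05. It was also run on simulated reads with the same spread for every region and no scaling differences between libraries. That run does not cover such differences in the real data. The members and lists were chosen with earlier results of these data known. Named are the 5 Kcn regions of smallest p in each direction (at most 1 per gene), the 10 highest promoters, genes with no promoter region, list members and the clock-linked genes; Kcnj6, Kcnj14, Kcnk13, the Kcnk3 intron region and the strongest regions were chosen after their values were seen. Some genes that these rules select are not reported here. RefSeq lists 94 Kcn genes, of which 12 are not analysed here. Alternatives were other scalings, pseudocounts, filters, windows, voom, a replicate block and leaving out each library.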

Additional observations from a re-analysis of the deposited data

Results flagged for a closer look

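In a region of Kcnab1 intron 5, chr3:65301616-65301896, iMSBmal1KO 1 had a signal of 30.8 while the other 3 iMSBmal1KO libraries lay between 17.6 and 19.1. In the Kcnip1 intron 1 region, chr11:33917733-33917938, iMSBmal1KO 3 had 27.4 while the others lay between 14.1 and 16.3. In each, a library stood far from the rest of its group (gap over range 0.885 and 0.836). These are 2 of 52 group values checked, and chance alone flags about 1 in 20.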

How the results depend on the processing

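The count of called regions over the whole table was 110, and 277 with trimmed-mean factors, 223 with the autosomal total, 342 with cyclic loess, 195 with no filter and 302 with limma-voom. Leaving out 1 library gave 32 to 281. The Kcn count was 0, and 1 with cyclic loess. Leaving out each library gave 0 to 1, the 1 without vehicle 4 (Kcnab1 intron 5). The Kcn promoter count was 0, and 0 to 1 with a library left out, the 1 without vehicle 2 (Kcna5). The Kcn median log2 change of 0.09 was -0.033 with the autosomal total and 0.01 to 0.13 with a library left out. The 9 regions named kept their direction under the 16 to 17 alternatives that could be fitted for each. The share of Kcn regions at an unadjusted p under 0.05 was below that of all regions in 17 of 18 settings. The muscle minus neuronal difference of 5.27 was 7.93 with a window of 500 bp, 1.74 with 2000 bp, 6.53 with the strongest region, 5.78 with a pseudocount of 0.5 and 4.04 with 5, and 5.15 to 5.36 with a vehicle library left out. The cause of these shifts was not tested, except that genes without a promoter region enter at 0.

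Replicate numbers are shared only as numbers: deviations of same-numbered libraries correlated at -0.06, 0.14, 0.02 and 0.02, and not every library correlated best with its own number. With the replicate block 100 regions were called in all, 0 Kcn regions and 0 Kcn promoters, while over all genes 231 promoters were called against 16 without it. The edgeR and DESeq2 alternatives were not run, because whole reads were not accepted as recovered from the deposited signal. The depth of vehicle 4 limits low regions, where its values rest on few reads.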
